A study of Mus musculus with 9 samples.

Results

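The genes of glycolysis, lactate exchange and mitochondrial pyruvate entry were followed in sorted murine pancreatic ductal adenocarcinoma (PDAC) cells. The 39 members were named by symbol, from the glucose transporters through the enzymes of each step to the lactate transporters and the pyruvate dehydrogenase complex, and all 39 were found among the 47643 genes counted. Of these, 37 were among the 14105 genes with at least 100 counts over all libraries, and only those were tested. Slc2a4, the insulin-responsive glucose transporter (92 counts), and Fbp1, the gluconeogenic fructose-bisphosphatase (44 counts), were below that limit.

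Glycolysis splits glucose into pyruvate. Pyruvate is either reduced to lactate by lactate dehydrogenase and exported by the monocarboxylate transporters, or oxidized in mitochondria by pyruvate dehydrogenase, which the pyruvate dehydrogenase kinases switch off. Pancreatic tumors are known for high glucose uptake, and several steps are served by alternative isoenzymes encoded by separate genes, and tissues differ in which of these they use.

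GFP+Yap+ cells were sorted from KPF mice (6 libraries) and Tm+Yap- cells from KPYYF mice (3 libraries). KPYYF mice carried Pdx-Flp, the R26 FSF-CreER/Dual reporter and a Trp53 frt/+ allele, among others, together with Yap flox/flox, and KPF mice carried the same alleles without floxed Yap, so that the alleles other than floxed Yap were common to both groups. Flp under the Pdx promoter acts in the pancreatic lineage, and mice of both genotypes received a diet containing tamoxifen (TAM), which activates CreER, replaces GFP by tdTomato (Tm) and, in KPYYF mice, deletes Yap. The study describes the sequenced cells as taken from relapsed nodules. It reports that Tm+Yap- nodules arose in KPYYF mice after extended TAM treatment and were mostly poorly differentiated. GFP+ cells had therefore not recombined, since recombination replaces GFP. Genotype, Yap status, recombination, reporter color, and outgrowth and differentiation state after Yap loss cannot be told apart in this comparison. Mice of both sexes and a range of ages were used in the study, and the age of each mouse was not given in the sources used here. KPF libraries are listed below in the order 4269, 4435, 4504h, 4504s, 4515 and 4601, where 4504h and 4504s share a mouse number, and KPYYF libraries in the order 4449, 4891 and 4938.

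Gene counts ran from 8116539 to 9635514 per library, and levels are given as CPM, counts scaled to a common library size with TMM factors. Log2 fold changes are KPYYF minus KPF, given with their standard error (SE). Yap1 was at 41.8 to 151 CPM in KPF and 0.712 to 7.12 CPM in KPYYF libraries. Xist, an RNA of female cells, was at 7.68, 1120, 760, 670, 7.86 and 23.2 CPM in KPF libraries. In KPYYF libraries it was at 1645, 377 and 1765 CPM. All KPYYF libraries but only KPF 4435, 4504h and 4504s were high in Xist, so by this marker the sexes were not balanced between the groups. The summed level of 5 tumor epithelial markers (Epcam, Cdh1, Krt8, Krt18 and Krt19) was 2774 to 6957 CPM in KPF and 500 to 1305 CPM in KPYYF libraries, without overlap. Summed levels of 6 fibroblast markers were 300 to 4130 CPM in KPF and 424, 2131 and 959 CPM in KPYYF libraries. Those of 3 endothelial markers were 7.10 to 44.5 CPM in KPF and 14.8, 9.18 and 6.69 CPM in KPYYF libraries. For leukocyte and acinar markers, some libraries stood apart. KPF 4601 had 7010 CPM of 6 leukocyte markers, against 320 to 1196 CPM in the other libraries, and KPF 4504s and KPYYF 4449 had 7421 and 2874 CPM of 4 acinar markers, against 37.5 to 393 CPM. In bulk RNA, fewer cells of a type and less RNA per cell cannot be told apart. The counts of called members are therefore also given without these 3 libraries.

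The members had no common direction between Tm+Yap- and GFP+Yap+ cells: 19 had a positive and 18 a negative log2 fold change (KPYYF minus KPF), with a median of 0.03 beside -0.07 over all genes tested. Members held 0.310 to 0.526% of the gene counts in KPF and 0.321 to 0.441% in KPYYF libraries, so these ranges overlapped. The members with an unadjusted p under 0.05 lay at glucose entry (Slc2a3), hexokinase (Hk1 and Hkdc1), fructose 2,6-bisphosphate (Pfkfb3), phosphoglycerate mutase (Pgam2), pyruvate kinase (Pklr) and lactate transport (Slc16a1 and Bsg). The groups were compared by the quasi-likelihood test of edgeR, and p was adjusted by Benjamini-Hochberg across the 14105 genes. By this measure 2 members had an adjusted p under 0.05 and were higher in KPYYF (5.41% of the 37, where 0.305% of all genes passed) and 0 were lower (0.794% of all genes). These 2 were Slc16a1 and Pgam2. Pgam2 had 307 and 119 counts in KPYYF 4449 and 4891 and at most 1 in any other library. It thus reached the limit of 100 counts only through the group where it was high. The 5.41% includes Pgam2 and is no evidence of a shift of the members as a set. At an unadjusted p under 0.05, 3 members were higher (8.11%, with 6.10% of all genes) and 5 lower (13.5%, with 10.0% of all genes), shares close to the background. With a change of over 2-fold in addition, 3 were higher and 3 lower, 8.11% each, where the background was 4.20% higher and 9.20% lower. The KPYYF libraries lay entirely above the KPF libraries in 1 member (2.70%, background 3.92%) and entirely below in 2 (5.41%, background 5.18%). Without the 3 libraries that stood apart, 0 members passed the adjustment in either direction, and 3 were higher and 2 lower at over 2-fold and an unadjusted p under 0.05.

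**Figure D1:**
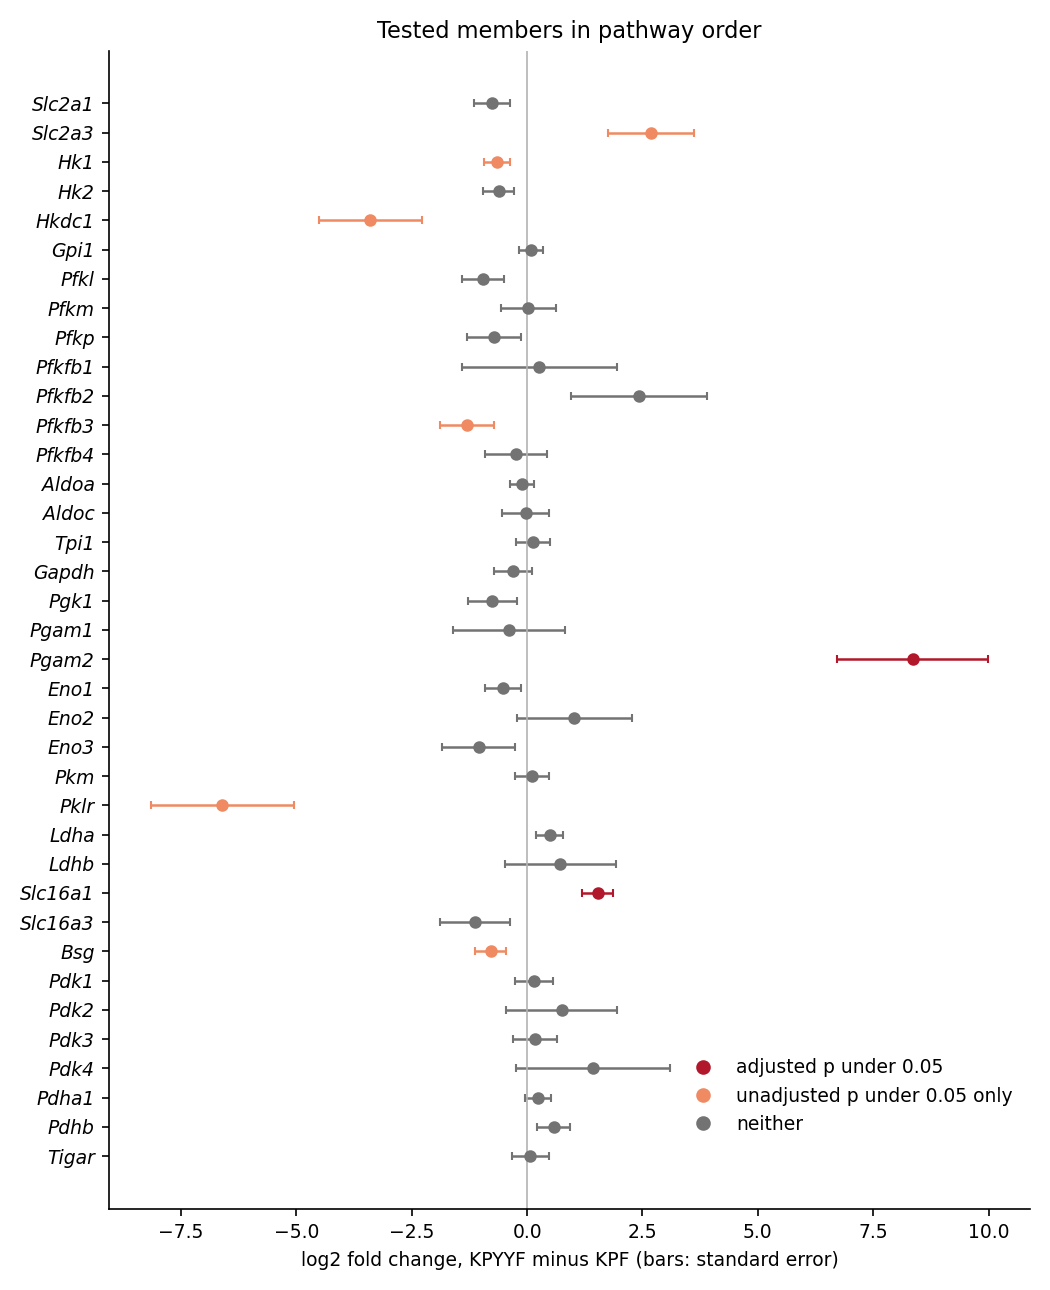
Log2 fold change between KPYYF (n = 3) and KPF (n = 6) libraries for the 37 tested members from glucose uptake (top) to pyruvate oxidation (bottom), with the standard error as bars. Slc16a1 and Pgam2 have an adjusted p under 0.05, the orange members an unadjusted p under 0.05 only, and most members of the central steps lie within 1 of 0.

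The promoters of the members on which these results turn are shown for the 250 bases before the RefSeq start, on GRCm38.p6, in the direction of transcription. Slc16a1 is the called lactate transporter, Pgam2 the called mutase, Pklr the pyruvate kinase with the lowest adjusted p among the members that were lower, and Ldha, whose level did not pass the test, is shown for comparison because its first promoter held the most motif matches of all members. Capitals mark the E-box CACGTG, the site class read by Myc among other factors, and the cores ACGTG and GCGTG of hypoxia response elements, on either strand. The windows are chr3:104638414-104638663 (+) for Slc16a1, chr11:5803797-5804046 (-) for Pgam2, chr3:89135892-89136141 (+) for Pklr, and chr7:46845554-46845803 (+) for Ldha.
Slc16a1: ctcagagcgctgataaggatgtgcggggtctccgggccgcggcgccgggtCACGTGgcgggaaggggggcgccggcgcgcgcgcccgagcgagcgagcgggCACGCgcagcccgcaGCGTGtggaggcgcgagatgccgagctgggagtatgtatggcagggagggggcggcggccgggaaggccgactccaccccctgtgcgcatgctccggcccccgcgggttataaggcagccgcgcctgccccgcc
Pgam2: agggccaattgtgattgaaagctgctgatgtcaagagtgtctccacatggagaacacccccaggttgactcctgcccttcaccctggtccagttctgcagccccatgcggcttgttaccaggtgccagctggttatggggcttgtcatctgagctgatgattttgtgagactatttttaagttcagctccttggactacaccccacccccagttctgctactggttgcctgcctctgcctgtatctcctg
Pklr: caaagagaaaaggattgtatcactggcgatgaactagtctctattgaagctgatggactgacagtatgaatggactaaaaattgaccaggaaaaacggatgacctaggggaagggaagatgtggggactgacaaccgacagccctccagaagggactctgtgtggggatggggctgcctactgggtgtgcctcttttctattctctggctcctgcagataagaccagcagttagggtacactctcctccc
Ldha: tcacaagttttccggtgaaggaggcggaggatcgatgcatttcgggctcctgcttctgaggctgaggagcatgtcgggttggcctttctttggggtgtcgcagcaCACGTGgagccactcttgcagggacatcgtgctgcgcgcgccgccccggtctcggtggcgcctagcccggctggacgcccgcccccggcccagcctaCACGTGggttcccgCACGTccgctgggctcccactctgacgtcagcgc

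Slc16a1 held 1 E-box and 4 matches to a hypoxia core, 2 of them inside the E-box, which contains ACGTG on each strand. Ldha held 2 E-boxes and 5 cores, 4 of them inside the E-boxes, and the windows of Pgam2 and Pklr held neither motif. The same window GC content was 76.4% in Slc16a1, 67.2% in Ldha, 53.2% in Pgam2 and 50.0% in Pklr, against a median of 52.4% over all promoters. RefSeq listed 56 promoters for 36 of the members. A hypoxia core was present in 38 of them (67.9%), against 38.6% of all 32851 promoters, and an E-box in 6 (10.7%), against 6.02%. These motifs contain CG, and the GC content of the 56 was not matched to that of all promoters. Some windows of the same gene also overlap, as in Eno1, Pfkm and Aldoa, and were counted separately. The letters GGAATG, the core read by the TEAD partners of Yap, were in 7 of the 56 (12.5%), against 12.6% of all promoters. A match in these letters is a description of the sequence and not evidence of binding.

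Glucose enters through Slc2a1 (GLUT1) and the higher-affinity Slc2a3 (GLUT3). Slc2a1 was at 112, 138, 129, 79.0, 91.2 and 116 CPM in the KPF libraries and at 35.3, 40.3 and 120 CPM in the KPYYF libraries. Libraries 4449 and 4891 were below all KPF libraries, and 4938 was among them (log2 fold change -0.76 ± 0.40 SE, unadjusted p = 0.0770 and adjusted p = 0.372 by edgeR). Without KPYYF 4938 it was -1.55 (unadjusted p = 0.00104, adjusted p = 0.0986). Without KPYYF 4449 or 4891 it was -0.46 and -0.51 (unadjusted p = 0.282 and 0.269 by edgeR). Slc2a3 (chromosome 6, 122727809 to 122801640, minus strand, GRCm38) went the other way, with 0.0973, 3.79, 14.0, 11.2, 3.76 and 6.71 CPM in KPF and 9.97, 25.6 and 91.1 CPM in KPYYF libraries. KPYYF 4938 was the highest library, KPF 4269 with a single read the lowest, and KPYYF 4449 lay within the KPF range. The log2 fold change was 2.68 ± 0.94 SE (unadjusted p = 0.0146), and the adjusted p of 0.180 did not pass. Of 18 alternatives it passed in 1, DESeq2 (adjusted p = 0.0465). Without KPYYF 4938 the log2 fold change of Slc2a3 was 1.43 (adjusted p = 0.595).

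The transporters were also compared by their shares of the counts of the step. Slc2a3 took 0.0866 to 12.2% of the Slc2a1, Slc2a3 and Slc2a4 counts in KPF libraries and 22.0, 36.7 and 43.1% in KPYYF libraries. Slc2a1 took 86.2 to 99.9% and 56.9 to 78.0%. No library overlapped on either share. Such shares were computed for 30 members in 11 steps served by more than 1 member, and 6 of them in 3 steps did not overlap, those of Slc2a1 and Slc2a3, Pkm and Pklr, and Slc16a1 and Slc16a3. Within a step the shares add up to the whole, so that a pair of them is not a pair of separate results. They were singled out after their values were seen, were not tested, and have no background over other genes to be read against. Slc2a4 was at 0 to 3.99 CPM in KPF and at 0, 3.72 and 0 CPM in KPYYF libraries.

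**Figure D2:**
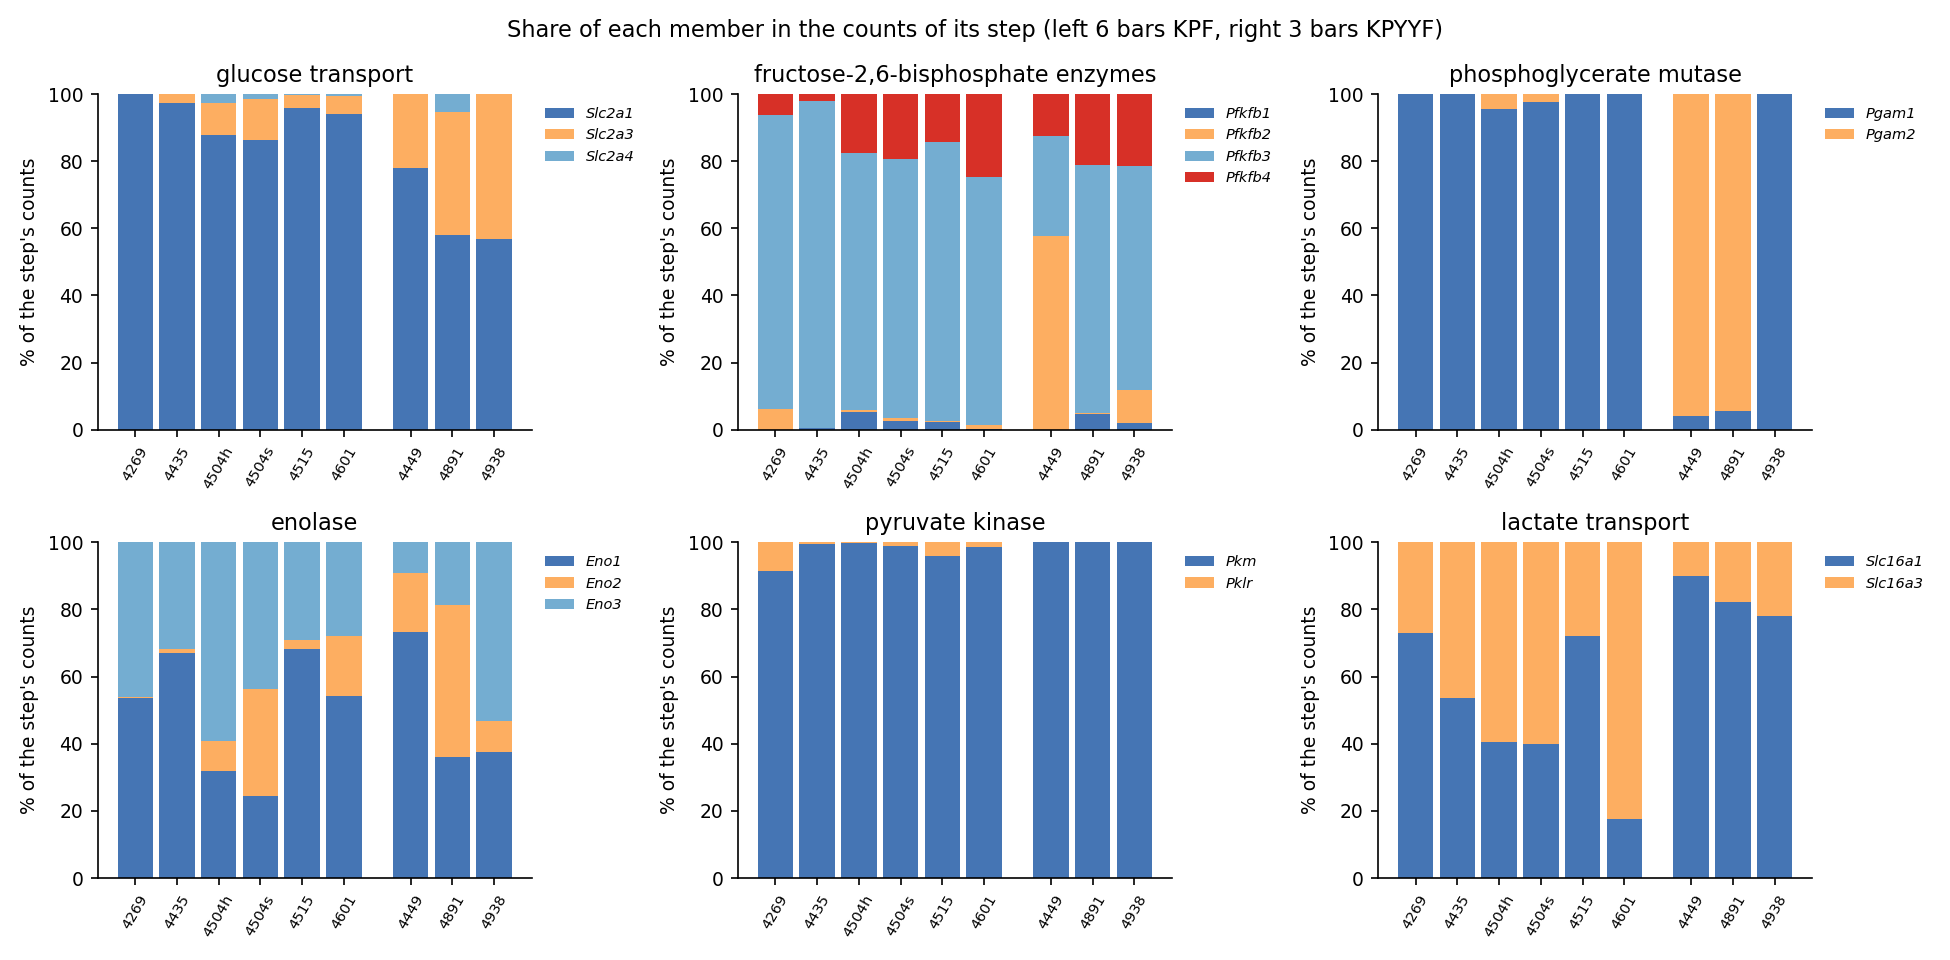
Share of each member in the counts of its step, in percent, for 6 steps served by several genes, 1 bar per library with the 6 KPF libraries on the left and the 3 KPYYF libraries on the right. In KPYYF libraries, Slc2a3 takes 22.0 to 43.1% of the glucose transport counts, and Slc16a1 takes 77.9 to 90.0% of the lactate transport counts. Pgam2 takes 94.4 to 95.9% of the mutase counts in 2 of these libraries, where Pgam1 has few counts.

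Hexokinases trap glucose as glucose 6-phosphate. Hk2, the inducible form common in tumors and the most counted here, was at 200 to 535 CPM in KPF and at 318, 229 and 152 CPM in KPYYF libraries (log2 fold change -0.62 ± 0.34 SE, adjusted p = 0.392 by edgeR). Hk1, the ubiquitous form, was at 145, 157, 207, 227, 252 and 217 CPM in KPF and at 114, 104 and 163 CPM in KPYYF libraries, and only KPYYF 4938 reached the KPF range. Its log2 fold change of -0.66 ± 0.28 SE had an unadjusted p of 0.0347 and an adjusted p of 0.261. Hkdc1, a further hexokinase that lies beside Hk1 on chromosome 10, was at 17.6, 7.38, 18.3, 23.4, 53.8 and 5.54 CPM in KPF and at 0.356, 5.36 and 0.219 CPM in KPYYF libraries. All KPYYF libraries were below all KPF libraries, although KPYYF 4891 at 5.36 CPM was close to KPF 4601 at 5.54 CPM. The log2 fold change was -3.40 ± 1.11 SE (unadjusted p = 0.00946, adjusted p = 0.156), so that the direction held in every library without passing the adjustment. Without KPYYF 4891 it was -6.13. Of the hexokinase counts, Hkdc1 took 1.05 to 7.77% in KPF and 0.0696 to 1.58% in KPYYF libraries.

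Phosphoglucose isomerase, Gpi1, was among the steadiest members, at 117 to 208 CPM in KPF and at 151, 221 and 183 CPM in KPYYF libraries. The phosphofructokinase-1 genes, which commit glucose to glycolysis, differed by -0.95 (Pfkl), -0.71 (Pfkp) and 0.03 (Pfkm) on the log2 scale, at adjusted p of 0.316 to 0.989. Their activator fructose 2,6-bisphosphate is made and removed by the Pfkfb enzymes, of which Pfkfb3, the form with the strongest kinase bias, was the most counted. Pfkfb3 was at 146, 246, 80.5, 92.7, 116 and 118 CPM in KPF and at 17.7, 119 and 25.4 CPM in KPYYF libraries. KPYYF 4449 and 4938 were below every KPF library, and 4891 was in the middle of them. The log2 fold change was -1.30 ± 0.59 SE (unadjusted p = 0.0470, adjusted p = 0.300), and without KPYYF 4891 it was -2.62. Without KPYYF 4449 or 4938 it was -0.88 and -0.96 (unadjusted p = 0.154 and 0.163 by edgeR). The unadjusted p was under 0.05 in 6 of 18 alternatives. In KPYYF 4449, where Pfkfb3 was lowest, Pfkfb2 was at 34.3 CPM, against 0.102 to 10.4 CPM in the other 8 libraries, and took 57.8% of the Pfkfb counts. Pfkfb2 ends inside Gm29427, a gene annotated on the same strand with 0 counts, so its counts are uncertain as levels. Pfkfb1 and Pfkfb4 were at 0 to 7.76 CPM and 5.33 to 39.5 CPM over the 9 libraries, with adjusted p of 0.966 and 0.910.

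The shared steps from aldolase to enolase showed little separation. Aldoa (335 to 514 CPM in KPF, 285, 360 and 503 CPM in KPYYF), Tpi1 (134 to 494 CPM, and 317, 303 and 277 CPM), Gapdh (96.2 to 332 CPM, and 128, 196 and 139 CPM), Pgk1 (14.6 to 53.9 CPM, and 8.55, 20.4 and 16.9 CPM) and Eno1 (31.6 to 112 CPM, and 40.5, 49.0 and 39.5 CPM) overlapped between the groups. Their log2 fold changes were -0.12, 0.13, -0.31, -0.75 and -0.52, and their adjusted p ran from 0.537 to 0.913. The counts of 11 members are uncertain as levels, because the last 300 bases of their transcripts match other genes over at least 75 bases at 95% identity. Those of Gapdh and Eno1 match 135 and 5 other genes, and those of Ldha, Pkm, Aldoa and Tpi1 match 6, 4, 2 and 2. Gpi1, Pfkp, Pklr, Ldhb and Pdha1 match 1 each. Reads without a unique alignment, 43.9 to 53.4% of the reads in a file, were not counted on genes. Tpi1, Gapdh, Pfkp and Pdha1 also end inside a gene on the opposite strand, as does Slc2a1, inside Gm12868 with 0 counts. The strand setting of the counting was not given in the sources used here. Aldoa took over 90% of the aldolase counts in every library, and Aldoc, at 7.89 to 36.0 CPM, had a log2 fold change of -0.04. The enolases divided unevenly from library to library: Eno2, the neuronal form, was at 0.292 to 41.0 CPM in KPF and at 9.74, 61.5 and 9.75 CPM in KPYYF libraries, and Eno3, the muscle form, at 21.0 to 134 CPM and at 4.99, 25.4 and 56.3 CPM. Neither passed the test (adjusted p = 0.756 and 0.569).

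**Figure D3:**
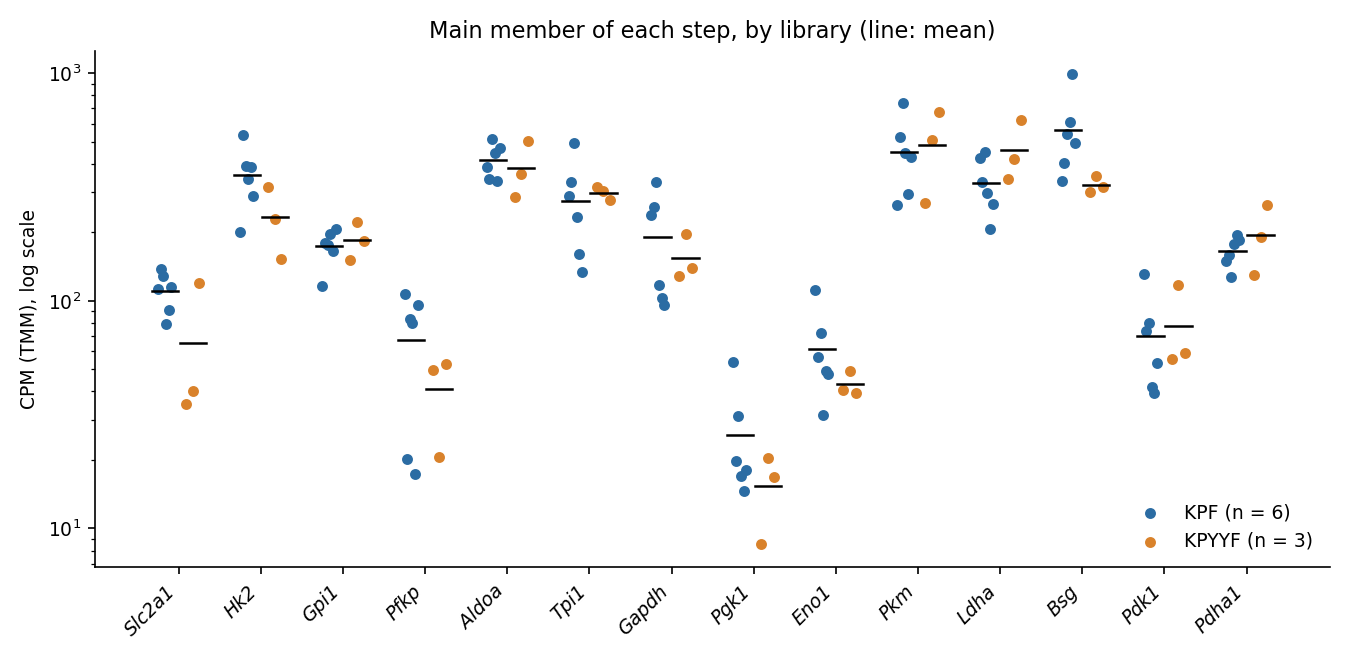
CPM on a log axis of Slc2a1, Hk2, Gpi1, Pfkp, Aldoa, Tpi1, Gapdh, Pgk1, Eno1, Pkm, Ldha, Bsg, Pdk1 and Pdha1, in the 6 KPF (blue) and 3 KPYYF (orange) libraries, with a line at the mean. The groups overlap in every gene drawn, and Pkm, Ldha and Aldoa are all above 200 CPM in each library. Slc16a1, whose groups do not overlap, and Pgam2, Pfkfb3 and Tigar are also the most counted of their steps but are not drawn.

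Phosphoglycerate mutase had the widest range of isoenzyme shares, through KPYYF 4449 and 4891, while KPYYF 4938 lay within the KPF range. Pgam1, the form of most tissues, had few counts, at 0.885 to 9.33 CPM in KPF and 1.54, 0.765 and 5.70 CPM in KPYYF libraries. Gpi1, of an earlier step, was at 117 CPM or more in every library. No other annotated gene matched the last 300 bases of Pgam1. Whether its reads were lost before counting was not tested, so shares of the mutase counts are uncertain. Pgam2, the muscle form (chromosome 11, 5801640 to 5803733, minus strand), had 0, 0, 1, 1, 0 and 0 counts in KPF libraries and 307, 119 and 0 counts in KPYYF libraries. Pgam2 was thus high in 2 of 3 KPYYF libraries, at 36.5 CPM in 4449 and 13.0 CPM in 4891, and a count of 0 in KPYYF 4938 allows up to 0.329 CPM. Over the pooled counts the ratio of KPYYF to KPF was 435 (95% exact counting interval 120 to 3603, which covers counting error only). The fitted log2 fold change of 8.35 ± 1.63 SE depends on the prior count, and had an adjusted p of 0.0351 by edgeR. The call passed in 7 of 17 alternatives, and limma-voom gave a log2 fold change of 3.80 (unadjusted p = 0.0969). Without KPYYF 4449 the log2 fold change was 7.02 (adjusted p = 0.0926 by edgeR). Pgam2 took 95.9 and 94.4% of the mutase counts in 4449 and 4891 and 0% in 4938.

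Ckm, the muscle creatine kinase, was at 0 in all KPYYF libraries, and Myh4, a fast myosin, was at 0 in all 9. Acta1, the skeletal muscle actin, was at 0.119 CPM in KPYYF 4449, where Pgam2 was highest, at 14.2 CPM in 4891, and at 40.8 CPM in 4938, where Pgam2 was at 0. KPYYF 4449 also had 2874 CPM of acinar markers. KPF 4504s, with 7421 CPM of them, had 1 count of Pgam2, and KPYYF 4891, with 49.6 CPM of them, had 119. The part of muscle and acinar RNA in the Pgam2 values was not tested. No other annotated gene matched the last 300 bases of Pgam2 over at least 75 bases at 95% identity.

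Pyruvate kinase came almost entirely from Pkm, the gene of the tumor form M2, at 264 to 737 CPM in KPF and at 270, 508 and 675 CPM in KPYYF libraries (log2 fold change 0.11, adjusted p = 0.929 by edgeR). Pklr (chromosome 3, 89136142 to 89146784, plus strand), the liver and red cell form, was at 24.7, 2.36, 1.53, 4.56, 12.5 and 5.54 CPM in KPF libraries and had 0, 1 and 1 counts in KPYYF libraries. The 3 KPYYF libraries were thus all below the lowest KPF library. The pooled ratio of KPF to KPYYF was 118 (95% exact counting interval 32.6 to 979, which covers counting error only and not the spread between libraries). Of the 483 KPF counts, 254 were in 4269. The fitted log2 fold change of -6.60 ± 1.54 SE had an unadjusted p of 0.000865 and an adjusted p of 0.0610, just short of the threshold, and it kept an unadjusted p under 0.05 in all 17 alternatives where Pklr was tested. Pklr took 0.208 to 8.57% of the pyruvate kinase counts in KPF and at most 0.0215% in KPYYF libraries. Pklr ends inside Hcn3 on the opposite strand, which had 22 counts over all libraries. Red cell markers (Hbb-bs and Hba-a1) were at 10.0 to 179 CPM in KPF, lowest in 4269, where Pklr was highest, and at 23.2 to 72.1 CPM in KPYYF libraries. Islet markers (Ins1, Ins2, Gcg and Iapp) were at 1.94 to 33.7 CPM in KPF and at 11.0, 0 and 0.219 CPM in KPYYF libraries, and the epithelial markers were lower in all KPYYF libraries. Their part in the Pklr and Hkdc1 values was not tested.

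**Figure D4:**
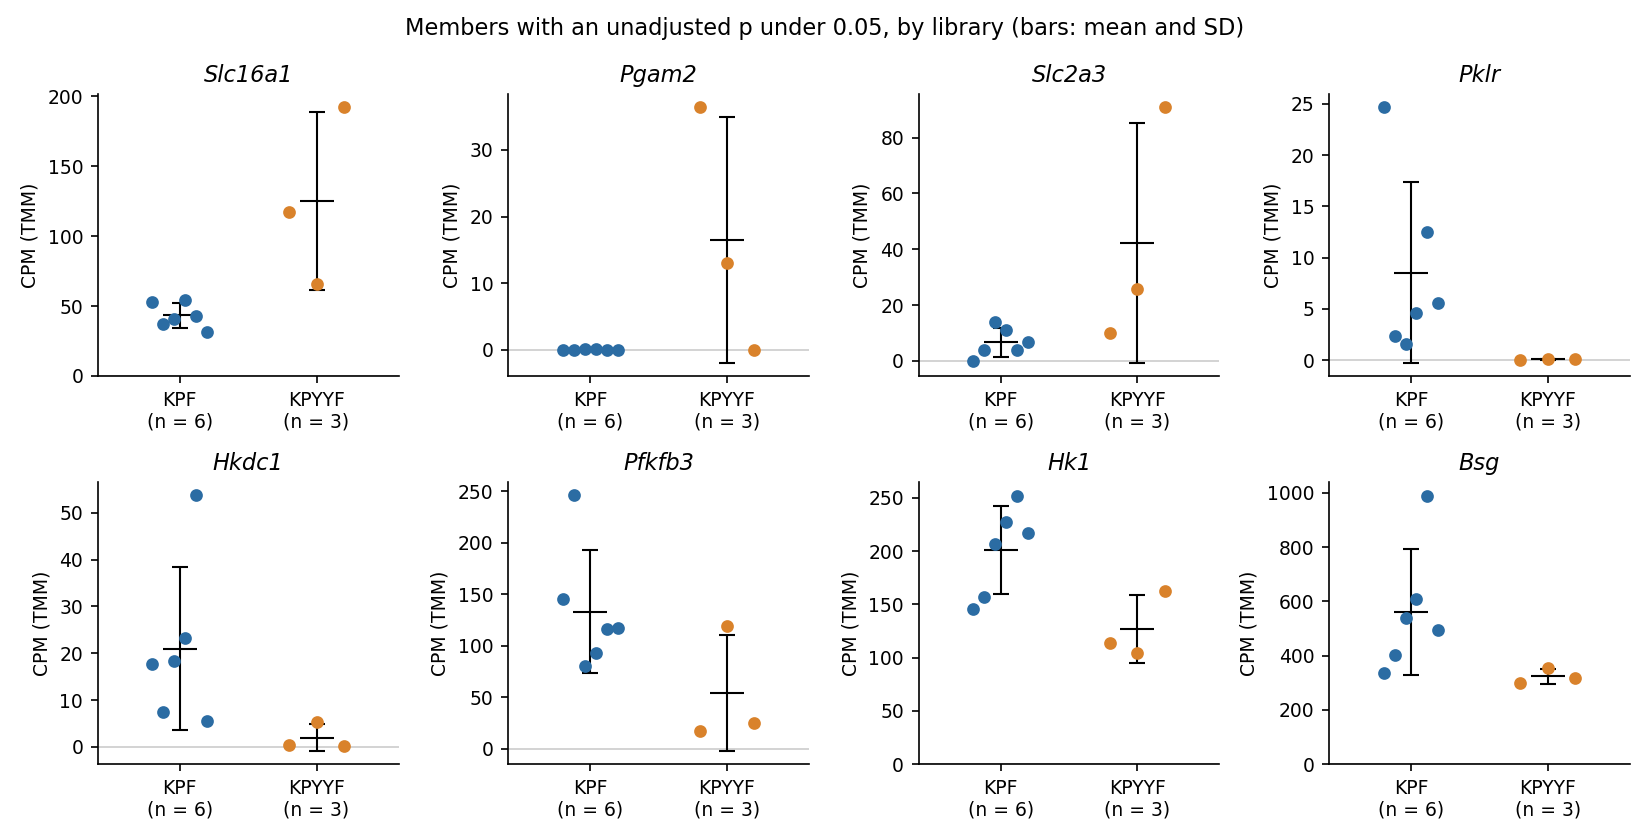
CPM in each library of the 8 members with an unadjusted p under 0.05, with the mean and SD of the 6 KPF and 3 KPYYF libraries. Slc16a1 is above, and Pklr and Hkdc1 are below, all KPF libraries in each KPYYF library, while Pgam2 is high in 2 of 3 KPYYF libraries and at 0 in the other.

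Lactate transport held the other called member, Slc16a1. Ldha, the form favoring lactate production, held over 96% of the lactate dehydrogenase counts in every library and was at 207 to 451 CPM in KPF and at 344, 418 and 622 CPM in KPYYF libraries (log2 fold change 0.49 ± 0.30 SE, adjusted p = 0.463 by edgeR). Ldhb, the form favoring pyruvate, was at 0.664 to 11.5 CPM in KPF and at 13.2, 13.1 and 0 CPM in KPYYF libraries. Slc16a1 (MCT1), a transporter that carries lactate and pyruvate in either direction, rose in Tm+Yap- cells. Slc16a1 (chromosome 3, 104638668 to 104658462, plus strand) was at 52.8, 37.2, 41.0, 54.0, 43.1 and 31.5 CPM in KPF libraries and at 117, 65.5 and 192 CPM in KPYYF libraries. All 3 KPYYF libraries were above the highest KPF library. The log2 fold change was 1.53 ± 0.34 SE (adjusted p = 0.0490), a 2.89-fold difference. It had an unadjusted p under 0.05 in all 18 alternatives and an adjusted p under 0.05 in 5 of them, and in 0 of the 9 fits without 1 library (adjusted p 0.0529 to 0.219). Gm43581, a transcript annotated inside Slc16a1 on the same strand, was counted separately and differed by 0.33 on the log2 scale (adjusted p = 0.864).

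Slc16a3 (MCT4), the low-affinity exporter of glycolytic cells, was at 19.6, 32.2, 60.1, 81.3, 16.7 and 149 CPM in KPF and at 13.1, 14.2 and 54.5 CPM in KPYYF libraries (log2 fold change -1.13 ± 0.75 SE, adjusted p = 0.512 by edgeR). Its highest library was KPF 4601, which also had 7010 CPM of leukocyte markers. Slc16a1 took 17.5 to 73.0% of the counts of the pair in KPF and 90.0, 82.2 and 77.9% in KPYYF libraries, without overlap, and without KPF 4601 the KPF range was 39.9 to 73.0%. Bsg, the chaperone that brings both transporters to the cell surface, was at 336, 402, 538, 608, 990 and 495 CPM in KPF and at 301, 355 and 316 CPM in KPYYF libraries. Its log2 fold change of -0.79 ± 0.33 SE (unadjusted p = 0.0320, adjusted p = 0.252) was opposite in sign to that of Slc16a1. Emb, the alternative chaperone, was at 9.19 to 185 CPM in KPF, highest in 4601, and at 32.4 to 50.7 CPM in KPYYF libraries.

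None of the genes of pyruvate oxidation passed the test. Pdha1, the catalytic subunit on the X chromosome, was at 127 to 194 CPM in KPF and at 130, 191 and 263 CPM in KPYYF libraries, and Pdhb at 49.8 to 91.9 CPM and at 182, 78.4 and 61.6 CPM. Pdk1, the kinase that hypoxia is known to induce, was the most counted of its family, at 39.5 to 132 CPM in KPF and at 55.8, 117 and 59.1 CPM in KPYYF libraries. The adjusted p of Pdha1, Pdhb and the 4 kinases ran from 0.478 to 0.913 by edgeR, and the log2 fold changes reached 0.58 ± 0.36 SE in Pdhb, 0.75 ± 1.19 SE in Pdk2 and 1.42 ± 1.67 SE in Pdk4. Pdk2 and Pdk4 had 335 and 157 counts over all libraries. Tigar, a phosphatase that opposes the Pfkfb kinases, was at 14.1 to 35.1 CPM in KPF and at 19.9, 28.0 and 24.9 CPM in KPYYF libraries (log2 fold change 0.07), and Fbp1 was at most 2.08 CPM. Pgk1 and Pdha1, which like Pdk3 and Pfkfb1 lie on the X chromosome, had log2 fold changes of -0.54 and 0.35 when only libraries with Xist counts at the level of the KPYYF libraries were compared, at adjusted p of 0.776 and 0.760.

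Within a group the members differed widely in how stable they were. In KPF libraries, the coefficient of variation was 15.0% for Pdha1, 17.4% for Aldoa, 18.3% for Gpi1 and 20.3% for Slc16a1, and 171% for Pfkfb2 and 166% for Pdk4. In KPYYF libraries it was 50.9% for Slc16a1, 102% for Slc2a3 and 73.0% for Slc2a1. KPYYF 4449 had the lowest value of all libraries in 10 members, and the summed CPM of the members was lowest there, at 3093, and highest in KPF 4504h, at 5039.

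The genes around the pathway were read from lists of known function. Of 24 genes of the hypoxia response, 0 were called higher and 1 lower by edgeR at an adjusted p under 0.05. Of all genes tested, 0.305% were called higher and 0.794% lower. The median log2 fold change of the list was -0.21, beside -0.07 over all genes tested. Car9, the membrane carbonic anhydrase that hypoxia induces, fell from 49.5, 40.0, 31.1, 34.6, 127 and 25.5 CPM in KPF to 1.19, 7.76 and 1.21 CPM in KPYYF libraries (log2 fold change -3.91, adjusted p = 0.0422). This call passed in 7 of 18 alternatives, and without KPYYF 4938 the adjusted p was 0.138. Car12, a related enzyme, was at 10.2, 3.69, 2.25, 6.61, 5.76 and 1.31 CPM in KPF and at 57.7, 9.51 and 30.8 CPM in KPYYF libraries (log2 fold change 2.71, adjusted p = 0.0812), and passed in 2 of 18 alternatives. Ndrg1, another gene that hypoxia induces, differed by -1.60 on the log2 scale (adjusted p = 0.153). The summed hypoxia list was at 1664 to 2899 CPM in KPF and 1633 to 2411 CPM in KPYYF libraries, overlapping.

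Among 15 regulators, 0 passed the adjustment by edgeR as reported, and Myc passed in 2 and Hif1a in 1 of 18 alternatives. Hif1a, the oxygen-regulated activator of glycolytic genes, was at 133, 177, 178, 108, 113 and 234 CPM in KPF and at 87.6, 67.1 and 69.9 CPM in KPYYF libraries, without overlap (log2 fold change -1.07, adjusted p = 0.120 by edgeR). Its relative Epas1 had a log2 fold change of -1.52 (adjusted p = 0.272). Myc, which binds E-boxes and activates several of the members, was at 20.9, 8.61, 25.5, 19.4, 15.1 and 9.04 CPM in KPF and at 87.8, 36.1 and 52.2 CPM in KPYYF libraries, also without overlap (log2 fold change 1.84, adjusted p = 0.0631). Mycn was at 1.64 to 3.65 CPM in KPF and at most 0.328 CPM in KPYYF libraries (adjusted p = 0.234). Of the 15 regulators, 1 was entirely higher and 2 were entirely lower in KPYYF libraries, as were 3.92 and 5.18% of all genes.

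**Figure D5:**
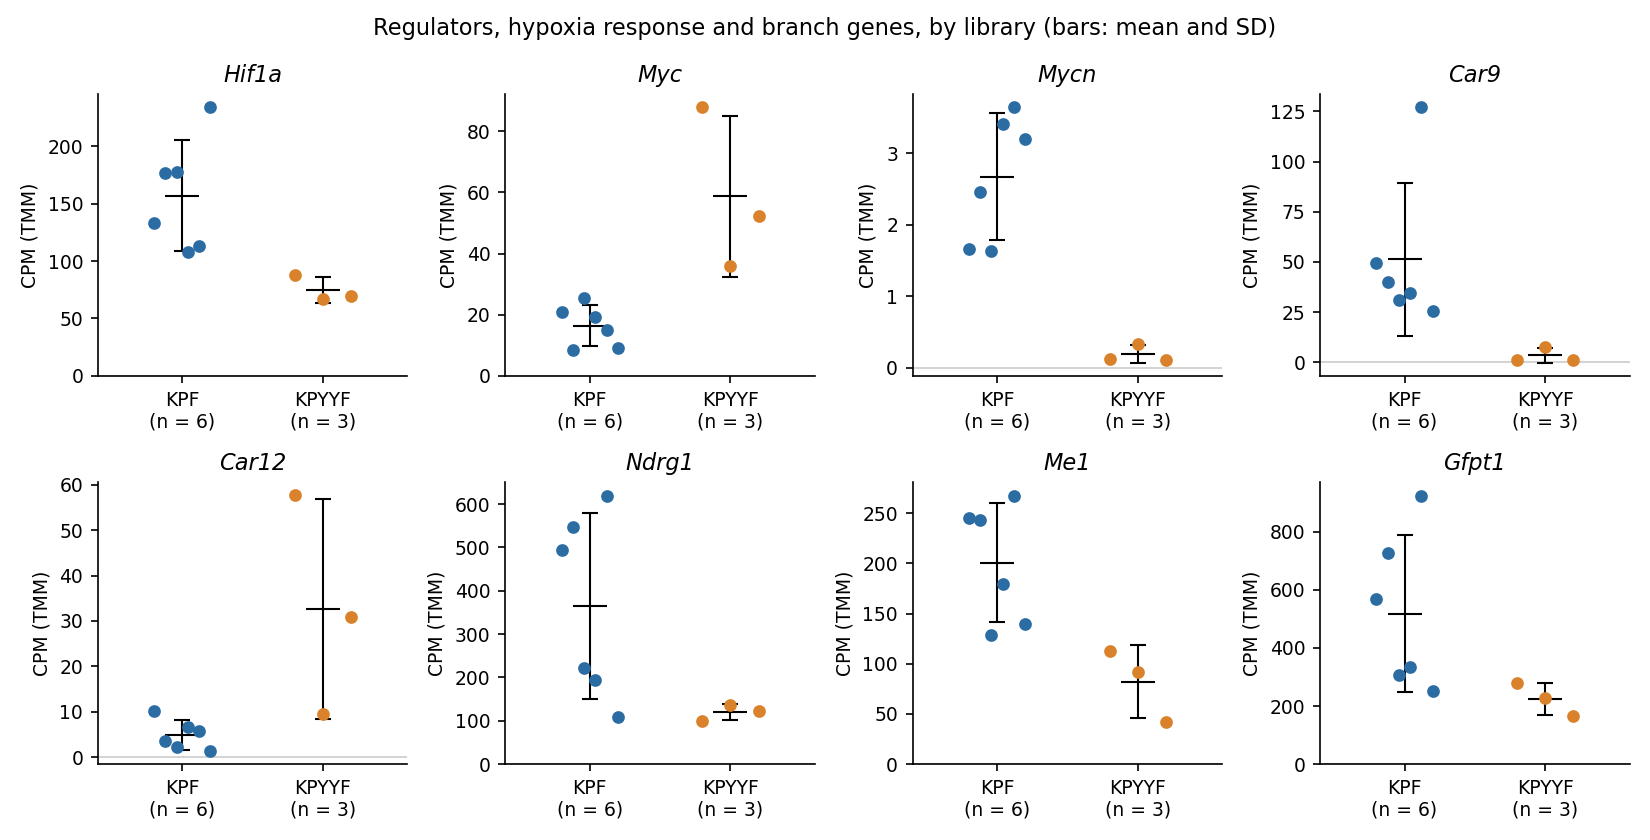
CPM in each library, with mean and SD, of 3 regulators, 3 hypoxia response genes and 2 enzymes that branch from glycolysis or pyruvate, in 6 KPF and 3 KPYYF libraries. Hif1a, Mycn, Car9 and Me1 are lower, and Myc is higher, in every KPYYF library than in any KPF library.

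The side branches also had no call at an adjusted p under 0.05. In the pentose phosphate pathway (7 genes tested, median log2 fold change -0.22), the extremes were Taldo1 with -1.28 (adjusted p = 0.168) and G6pdx with 0.58. Among 12 tested genes of mitochondrial pyruvate use, Me1, the cytosolic malic enzyme that makes pyruvate and NADPH, was at 128 to 268 CPM in KPF and at 113, 92.0 and 41.8 CPM in KPYYF libraries (log2 fold change -1.29, adjusted p = 0.118), and the other extreme was Pdp1 with 0.70. Among 13 genes of hexosamine and glycogen metabolism, Gfpt1, the entry enzyme of the hexosamine branch, had a log2 fold change of -1.21 (adjusted p = 0.176), with Pygl (-2.19) and Gnpnat1 (0.80) as extremes. Of 26 further transporters and isoenzymes, 13 were tested, between Fbp2 (-2.70) and Slc2a6 (1.99).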

How the data were processed

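RNA of GFP+Yap+ cells from KPF mice (6 libraries) and Tm+Yap- cells from KPYYF mice (3 libraries) was read by QuantSeq 3′ end sequencing, which gives about one read per transcript, so levels were not divided by gene length. The authors deposited raw counts per Ensembl gene for each library, and the submitters' processing notes name STAR, HTSeq and mm10, with no versions. The study's methods instead describe BeadChip hybridization, although the deposited values are whole-number counts. Reads without a unique alignment and summary lines were left out of library sizes. Identifiers were matched to symbols through GENCODE M21 (47224 of 47643).

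Genes with at least 100 counts in all were compared without covariates by edgeR 4.0.16's quasi-likelihood test (TMM, robust estimation, R 4.3.3), with Benjamini-Hochberg adjustment over 14105 genes and a threshold of 0.05. All p-values are two-sided. CPM are counts scaled to the TMM-corrected library size. A count of 0 allows up to 3 counts, or 0.292 to 0.437 CPM, for counting error only. The libraries carry mouse numbers, 2 of them shared, and p-values measure the spread between libraries. The common biological coefficient of variation was 0.825, which limits calls to large differences. The study's rule, an unadjusted p under 0.05 and more than 2-fold, was also counted.

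Members and gene lists were chosen with earlier results of these data known. Members with an unadjusted p under 0.05 or no overlap, and the most counted member of each step, are given in full. The names of Emb and of single markers were picked with their values in view. Of the surrounding lists, genes passing the study's rule and the extremes are named, except 1 gene of the hypoxia list, which like 1 shared allele is not reported here. Alternatives were DESeq2 1.42.0, RLE and upper quartile normalization, no filter, filterByExpr, limma-voom 3.58.1 with quality weights, 4504h and 4504s summed, high-Xist libraries only, each library left out, and, chosen after seeing the data, 4601, 4504s and 4449 left out together. Copies of transcript ends were searched with blastn 2.17.0. Promoters are RefSeq's. Each tool was tested on simulated data. Figures were drawn with matplotlib 3.10.9.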

Additional observations from a re-analysis of the deposited data

Results flagged for a closer look

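Among 22 members tested for a library far from its group, 1 was found. Slc2a3 in KPF library 4269 was at 0.0973 CPM, a single read, where the other KPF libraries were at 3.76 to 14.0 CPM, and on the log2 scale the gap to the nearest library took 0.665 of the range of the 6 libraries, above Dixon's 95% limit for 6 samples. Chance gives about 1 such library in 20 groups. Without KPF 4269 the log2 fold change of Slc2a3 was 2.42 (adjusted p = 0.125 by edgeR), so that the direction was the same and the threshold was again not passed. DESeq2 with all libraries gave Slc2a3 an adjusted p of 0.0465, which passed.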

How the results depend on the processing

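The number of members higher in KPYYF at an adjusted p under 0.05, 2 as reported, was 3 with DESeq2, where Slc2a3 passed, 1 with filterByExpr, which does not test Pgam2, and 0 with limma-voom, with 4504h and 4504s summed, with high-Xist libraries only and without KPF 4601, KPF 4504s and KPYYF 4449. Leaving out each library gave 0 to 1, with Pgam2 as the 1 call without KPF 4504h, KPF 4601 or KPYYF 4938, and 0 without any other library. The number lower, 0 as reported, was 2 with DESeq2 (Hkdc1 and Pklr) and 1 without a filter (Pklr). It was 0 in each fit without 1 library. DESeq2 called more genes of any kind, 269 of all 14105 higher and 928 lower, where edgeR as reported called 43 and 112. The fit without a filter called 88 of 22925 genes higher and 219 lower. With over 2-fold and an unadjusted p under 0.05, the number lower, 3 as reported, was 1 with high-Xist libraries only, where Pklr had too few counts to be tested, and 2 to 5 without 1 library, with 5 without KPYYF 4938, and the number higher was 2 to 4 throughout. The median log2 fold change of the members was -0.39 to 0.095 without 1 library, the lowest without KPYYF 4891, where that of all genes was -0.11. The cause was not tested. The log2 fold changes of Slc16a1, Pgam2, Slc2a3, Hkdc1, Pklr, Pfkfb3, Hk1, Bsg, Car9, Car12, Hif1a and Myc kept their sign in every alternative, and those of Gpi1, Aldoa, Tpi1, Gapdh, Pkm, Pdk1, Pdha1 and Tigar changed sign in 1 to 3. The adjusted p of Car9 was under 0.05 in 2 of the 9 fits without 1 library, those without KPF 4601 or KPYYF 4891. No paired analysis was possible because the labels number the mice, not the replicates, and no mouse gave libraries to both groups. With 3 KPYYF libraries, a difference in a low gene such as Pgam1 was not detectable unless large.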
